A study of Mus musculus with 40 samples.

Results

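The hepatocyte transporters described here are 10 genes of 21448 gene symbols measured. Their products carry bile acids and other organic anions into the liver cell, out into bile or back into blood. That of Abcb4 supplies phosphatidylcholine to bile instead. These genes were taken as the rows of the counts whose gene symbol is a listed member. A total of 21 of the 30146 probes measure them, and each gene is represented by its probe with the most reads. Values of other probes are given beside it in some of the comparisons. The sinusoidal uptake carriers were Slc10a1, Slco1a1, Slco1a4 and Slco1b2. The canalicular export pumps were Abcb11, Abcb4, Abcc2 and Abcg2, and the basolateral efflux pumps were Abcc3 and Abcc4.

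The livers came from wildtype male and female Crl:CD1(ICR) mice, an outbred stock, given GenX by oral gavage for 90 days. GenX is the trade name of an ammonium salt of a perfluoroalkyl ether acid used in making fluoropolymers. The daily doses were 0.1, 0.5 or 5 mg per kg of body weight, and control mice (0 mg/kg) received deionized water alone. There were 5 mice in each of the 8 groups of sex and dose, with 1 library per mouse from a scraped section of fixed and embedded liver, so lobule zones and cell types were not separated. RNA was measured with TempO-Seq, in which paired probes that meet on a target RNA are joined, amplified and counted, and values are raw read counts of probes. The library of mouse 355, a female at 0.5 mg/kg, stood apart with 6711981 reads from an estimated 92099 captured molecules, and it was left out. The other 39 libraries held 10341341 to 15562253 reads. Their estimated captured molecules had a median of 329948 in control males and 591285 in males at 5 mg/kg, and of 418494 and 320467 in the corresponding females, and the part of this difference in the results was not tested.

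Bile acids circulate between liver and intestine. At the blood-facing sinusoidal membrane, hepatocytes take them up with NTCP, the sodium-dependent carrier encoded by Slc10a1, and with the sodium-independent OATP carriers encoded by the Slco genes, and at the canalicular membrane ATP-driven pumps move them into bile. Efflux pumps of the MRP family at the basolateral membrane return conjugates to blood, a route known for being raised when outflow into bile is blocked. Uptake carriers and export pumps in this organ also move many drugs.

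The DNA upstream of the 5 transporters whose RNA changed at 5 mg/kg is shown here, so that the letters before each start can be read beside the values. The genes were chosen after the values had been seen. RefSeq windows for GRCm38.p6, from 250 bases before to 50 bases after each gene start, were matched by symbol for 9 of the 10 genes, in 13 windows; Abcc3 was the gene not matched. Each line gives the 150 bases before a start, 5′ to 3′ on the gene's own strand, and capitals mark matches to AGGTCA, the core letters that many nuclear receptors read, or to TGACNNNGC, the core of the antioxidant response element, on either strand.
Slc10a1, chr12:80968706-80968855, minus strand: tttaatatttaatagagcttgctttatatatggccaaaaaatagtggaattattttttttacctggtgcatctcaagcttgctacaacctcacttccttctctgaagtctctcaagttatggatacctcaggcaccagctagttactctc
Slco1a1, chr6:141946963-141947112, minus strand: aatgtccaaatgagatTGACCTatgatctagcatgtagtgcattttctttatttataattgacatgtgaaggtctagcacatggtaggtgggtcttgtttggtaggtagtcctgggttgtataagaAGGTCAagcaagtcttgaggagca
Slco1b2, chr6:141629368-141629517, plus strand: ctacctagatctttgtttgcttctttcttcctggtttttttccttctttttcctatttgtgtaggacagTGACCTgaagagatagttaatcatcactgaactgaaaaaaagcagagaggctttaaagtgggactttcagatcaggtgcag
Abcb11, chr2:69342617-69342766, minus strand: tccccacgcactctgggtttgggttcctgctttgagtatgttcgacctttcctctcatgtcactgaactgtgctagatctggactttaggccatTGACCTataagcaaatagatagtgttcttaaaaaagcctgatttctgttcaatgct
Abcc4, chr14:118706220-118706369, minus strand: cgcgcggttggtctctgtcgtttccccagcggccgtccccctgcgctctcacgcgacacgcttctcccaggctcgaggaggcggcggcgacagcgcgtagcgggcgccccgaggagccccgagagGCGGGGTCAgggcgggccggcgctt
AGGTCA was present in 7 of the 13 windows of these genes, from 6 genes, and in 16.3% of all 32851 windows. It lay at -134 and -24 from the start of Slco1a1, at -81 in Slco1b2 and at -56 in Abcb11. The Slc10a1 stretch printed above held none, whereas a window at a second RefSeq start of this gene held it at -87. TGACNNNGC, present in 12.4% of all windows, was found at -25 from the printed start of Abcc4, at -23 from another start of that gene, and at -98 in Abcc2. A direct repeat of AGGTCA spaced by 1 base was in 0.0396% of all windows, an inverted repeat with that spacing was in 0.00913%, and 0 of the 13 windows held either. These are matches of letters in short windows, and binding of a factor was not measured.

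By GENCODE annotation of GRCm38, Slc10a1 spans chr12:80953183-80968705 and Abcb11 spans chr2:69238282-69342616. The 3 Slco genes lie on chromosome 6, Slco1b2 at 141629518-141686646, Slco1a4 at 141805440-141856199 and Slco1a1 at 141907282-141946962, within 317445 bases. Abcg2 is on the same chromosome at 58584523-58695676. Abcb4 spans chr5:8893717-8959231, Abcc2 spans chr19:43782192-43840740, Abcc3 spans chr11:94343295-94392997 and Abcc4 spans chr14:118482692-118706219. All are protein-coding genes. Transcripts of Slco1a1 and Slco1a4 share an identical run of 132 bases, and those of Abcb4 and Abcb1a a run of 110 bases. Positions of the probes within transcripts were not used here, so values of Slco1a1, Slco1a4 and Abcb4 are uncertain to the extent that their probes can bind a relative. The longest run shared by Slco1a1 and Slco1b2 was 15 bases.

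Each dose was set against the controls of its sex with edgeR's quasi-likelihood F-test in 1 model of all 8 groups. Calls were made where the p adjusted by Benjamini and Hochberg's method, over the 17877 probes tested, was below 0.10. All 10 genes were tested on their most counted probe, and 20 of their 21 probes passed the filter on low counts. Values per mouse are normalized counts in CPM, reads of a probe scaled to a common library size with the TMM method, and they compare mice for 1 gene but not 1 gene with another, since probes differ in efficiency. In bulk tissue such as these sections, fewer cells of a type and less RNA per cell cannot be told apart.

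At 5 mg/kg in males, 3 of the 4 uptake carriers fell and 1 of the 2 basolateral pumps rose, while 0 of the 4 canalicular pumps were called on their most counted probe by edgeR or DESeq2, with 0 at an unadjusted p below 0.05 by edgeR. With probes summed, edgeR called Abcg2 higher, and with counts in molecules it called Abcb11 lower. In that comparison, 3.75% of the 12412 genes tested on their most counted probe were called lower and 5.59% higher. Of all 17877 probes, 3943 had an unadjusted p below 0.05 by edgeR in it. The median log2 fold change was -1.42 over the 4 uptake carriers, 0.58 over the 4 canalicular pumps and 0.10 over all probes. In females at 5 mg/kg, 1 uptake carrier (Slc10a1) and 1 canalicular pump (Abcb11) fell, where 2.0% of genes were called lower and 2.09% higher. The median was -0.65 over the uptake carriers, 0.26 over the canalicular pumps and -0.01 over all probes. In both sexes these class medians include Slco1a4, Abcb4 and Abcg2, which had few captured molecules. With probes summed, Abcb11 and Abcc2, which had more reads, had log2 fold changes of -0.36 and 0.11 in males. In females these were -0.77 and -0.13, so the canalicular medians do not describe these pumps. The summed level of 7 hepatocyte markers was also lower at 5 mg/kg, with medians of 40730 and 23050 CPM in control and treated males and of 35260 and 21790 CPM in females, and its part in the transporter values was not tested.

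Mouse 355 belongs to none of the groups compared at 5 mg/kg with controls, but the model estimates the spread over all groups. In a fit of all 40 libraries, fold changes moved little and adjusted p values rose. Slc10a1 and Abcc4 in males stayed called at 5 mg/kg. The log2 fold change was -1.42 for Slco1a1 (edgeR adjusted p = 0.151) and -0.61 for Slco1b2 (0.708) in males, and in females it was -0.82 for Slc10a1 and -0.77 for Abcb11 (0.322 for each). The adjusted p was 0.206 for the sex difference of Slc10a1 and 0.159 for Abcc4 in males at 0.5 mg/kg. The values below are of the 39 libraries.

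Slc10a1 encodes NTCP, the main carrier of conjugated bile acids from blood into the hepatocyte. In control males its normalized counts were 269, 285, 299, 318 and 396 CPM. In males at 5 mg/kg they were 40.4, 70.9, 74.0, 80.5 and 81.7 CPM. Every treated male lay below every control male. The mean went from 314 ± 49.5 (SD, n = 5) to 69.5 ± 16.8 CPM (SD, n = 5), a fall of 77.8% by the fitted model (log2 fold change -2.17, SE 0.18, 95% interval -2.54 to -1.81, edgeR adjusted p = 2.93e-13).

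A second probe of Slc10a1 gave 208 to 280 CPM in control males and 34.1 to 69.5 CPM in males at 5 mg/kg. Its log2 fold change was -2.21 (SE 0.19, edgeR adjusted p = 1.66e-12), so both probes of this gene moved alike in males.

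In females, Slc10a1 was at 241, 277, 293, 319 and 323 CPM in controls and at 112, 147, 152, 160 and 253 CPM at 5 mg/kg. Of these, 4 of the 5 treated females lay below all controls, and mouse 453 lay within their range. The mean went from 290.4 ± 33.6 to 165 ± 52.8 CPM (SD, n = 5 each), a fall of 43.3% (log2 fold change -0.82, SE 0.17, edgeR adjusted p = 0.00171). On the other probe the groups did not overlap, and the log2 fold change was -0.70 (SE 0.19, edgeR adjusted p = 0.0207).

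The fall of Slc10a1 was larger in males than in females. The difference between the sexes in the response at 5 mg/kg, tested as an interaction, was -1.36 on the log2 scale (SE 0.24, 95% interval -1.85 to -0.86, edgeR adjusted p = 0.00107), and -1.51 on the other probe (edgeR adjusted p = 0.000727). Slc10a1 was the only 1 of the 10 transporters called in this comparison, where 1.19% of genes were called in either direction. Control males and control females overlapped in Slc10a1 (log2 difference -0.11, females minus males, SE 0.17, edgeR adjusted p = 1.0).

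**Figure D1:**
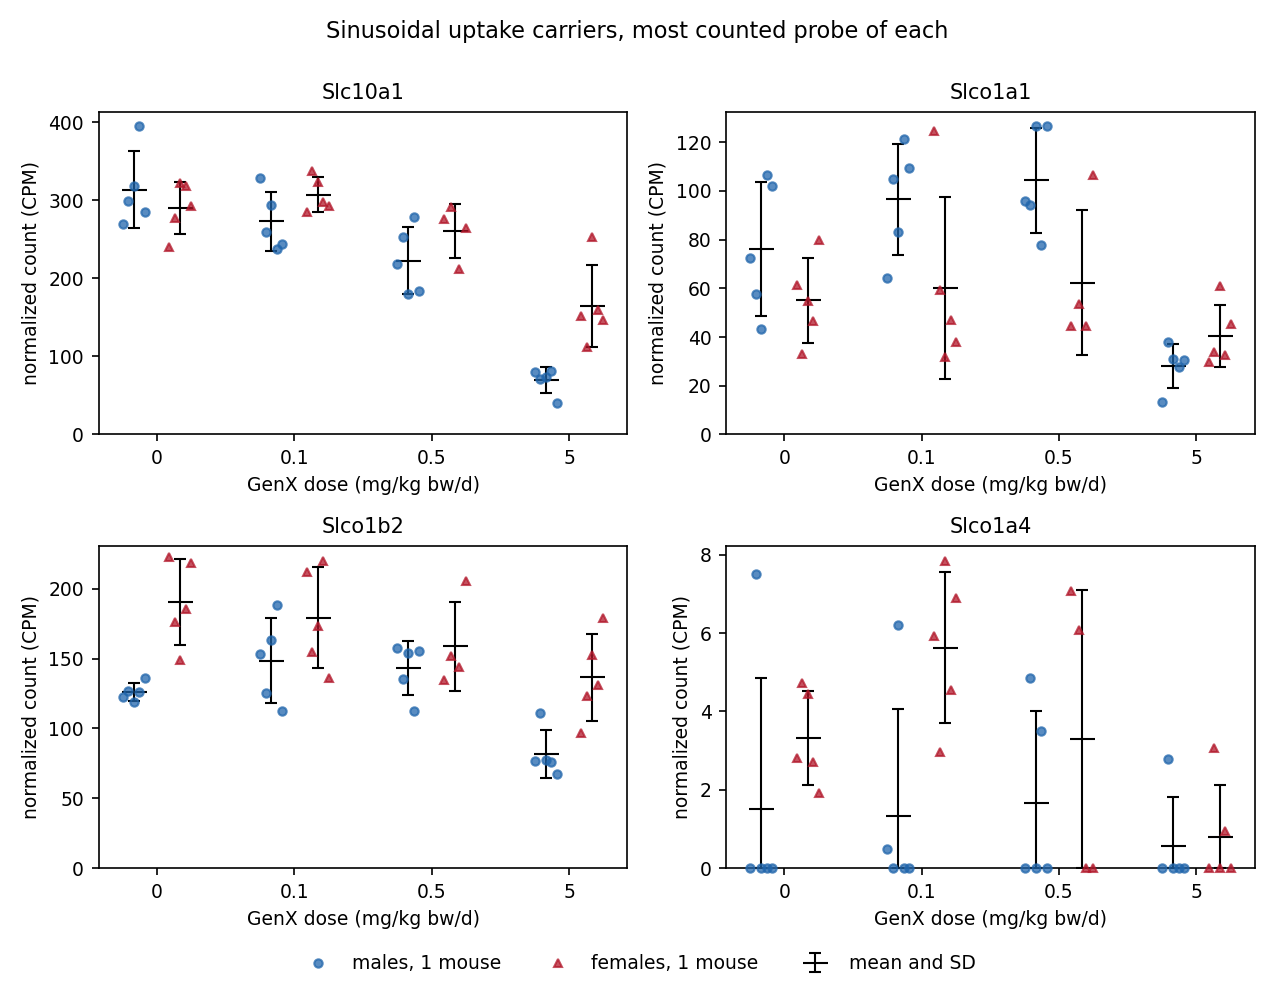
Normalized counts in CPM of the 4 sinusoidal uptake carriers in each mouse by GenX dose in mg/kg bw/d, with males as circles, females as triangles, and black bars at the mean and SD (lower bars stop at 0). Males at 5 mg/kg sit between 40.4 and 81.7 CPM for Slc10a1, below every control male. On its most counted probe, Slco1a4 stays under 8 CPM in all mice.

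Slco1a1 encodes OATP1A1, a carrier of bile acids, steroid conjugates and other organic anions. Control males were at 43.3, 57.5, 72.3, 102 and 106 CPM, and males at 5 mg/kg at 13.4, 27.8, 30.7, 31.1 and 38.01 CPM. The groups did not overlap. The fall was 63.0% (log2 fold change -1.44, SE 0.31, 95% interval -2.05 to -0.82, edgeR adjusted p = 0.000925). Slco1a1 has a single probe in the assay, so no second probe bears on it.

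In females, Slco1a1 ranged from 32.95 to 79.7 CPM in controls and from 29.9 to 60.8 CPM at 5 mg/kg, and the groups overlapped (log2 fold change -0.44, 95% interval -1.05 to 0.17, edgeR adjusted p = 0.619). The difference in response between the sexes was -0.99 on the log2 scale (SE 0.43) and did not pass the threshold (edgeR adjusted p = 0.315). Control males averaged 76.2 ± 27.5 and control females 55.0 ± 17.4 CPM (SD, n = 5 each), a difference within the spread between mice (edgeR adjusted p = 0.506).

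Slco1b2 encodes OATP1B2, the liver-specific carrier of unconjugated bile acids, bilirubin and many drugs. Control males were close together at 119, 123, 126, 126 and 136 CPM, and males at 5 mg/kg were at 67.4, 76.0, 76.9, 77.7 and 111 CPM. All treated males lay below all control males, with mouse 402 nearest to them. The fall was 35.1% (log2 fold change -0.62, SE 0.17, edgeR adjusted p = 0.0157), and the other probe gave -0.70 (SE 0.23, edgeR adjusted p = 0.0624), with overlapping groups.

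In females, Slco1b2 averaged 190.5 ± 30.7 CPM in controls and 137 ± 31 CPM at 5 mg/kg (SD, n = 5 each), and the groups overlapped (log2 fold change -0.48, 95% interval -0.83 to -0.13, edgeR adjusted p = 0.17). This value sat near the threshold, since DESeq2 gave an adjusted p of 0.0912 and leaving out mouse 455 gave 0.0725. The other probe gave -0.20 (edgeR adjusted p = 1.0). The responses of males and females differed by -0.14 on the log2 scale (95% interval -0.64 to 0.35, edgeR adjusted p = 1.0).

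Slco1a4 encodes OATP1A4, which also carries organic anions and digoxin. Its most counted probe had reads in 1 of 5 control males, at 7.497 CPM, and in 1 of 5 males at 5 mg/kg, at 2.79 CPM. In females it had reads in all 5 controls, at 1.93 to 4.72 CPM, in all 5 mice at 0.1 mg/kg, at 2.96 to 7.84 CPM, and in 2 of 5 mice at 5 mg/kg, at 0.951 and 3.07 CPM. These reads stood for an estimated 7.1 captured molecules over the 5 control females and 1.4 over the females at 5 mg/kg. A difference was therefore not detectable at this depth (edgeR adjusted p = 0.976 in females). The second probe of Slco1a4 went the other way in females, with means of 0.223 CPM in controls and 1.04 CPM at 5 mg/kg. It had reads in 1 and 2 of 5 mice in these groups, an estimated 0.5 and 1.8 molecules. In females at 0.1 mg/kg it averaged 3.755 CPM, with reads in 3 of 5 mice. In males it averaged 0.664 CPM in controls and 0.381 CPM at 5 mg/kg, with reads in 1 of 5 mice in each.

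**Figure D2:**
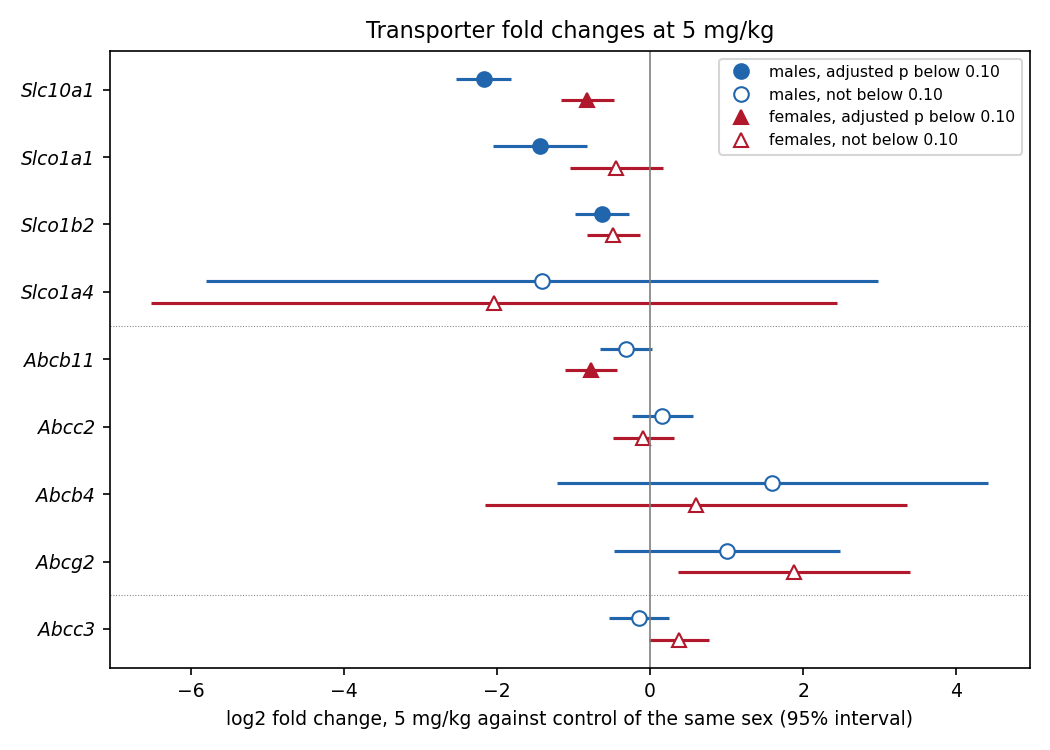
Log2 fold change at 5 mg/kg against control mice of the same sex for 9 of the 10 transporters (horizontal axis), with 95% intervals as lines, males as circles and females as triangles, filled where the edgeR adjusted p was below 0.10. Dotted lines separate uptake, canalicular and basolateral genes, and filled points lie at -2.17, -1.44 and -0.62 in males and at -0.82 and -0.77 in females; Abcc4 is not drawn because its control males had no reads.

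Abcb11 encodes BSEP, the bile salt export pump that moves bile salts into the canaliculus. In females it was at 557, 585, 634, 713 and 764 CPM in controls and at 315, 344, 390.5, 396 and 463 CPM at 5 mg/kg, and the groups did not overlap. The fall was 41.3% (log2 fold change -0.77, SE 0.17, 95% interval -1.11 to -0.43, edgeR adjusted p = 0.00301). A second probe with far fewer reads gave -0.60 (SE 0.41, edgeR adjusted p = 0.618).

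In males, Abcb11 was at 431 to 497 CPM in controls and at 309, 317, 339, 375 and 488 CPM at 5 mg/kg. Mouse 402 lay inside the control range and the other 4 below it, and the log2 fold change of -0.32 (95% interval -0.66 to 0.02) did not pass the threshold (edgeR adjusted p = 0.268). With counts converted to estimated molecules, the adjusted p was 0.0654. The responses of the sexes differed by 0.45 on the log2 scale, males minus females (SE 0.24, edgeR adjusted p = 0.433), so Abcb11 was not shown to respond differently in males and females. Control females lay above all control males (650.5 ± 86.6 against 456 ± 25.7 CPM, SD, n = 5 each), at a log2 difference of 0.51 (SE 0.17, edgeR adjusted p = 0.108; 0.0763 with DESeq2).

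Abcc2 encodes MRP2, which exports bilirubin glucuronides and other conjugates into bile. It averaged 314 ± 58.6 CPM in control males and 351 ± 92.7 CPM at 5 mg/kg, and 353 ± 76.3 against 333 ± 73.8 CPM in females (SD, n = 5 each). The intervals of the log2 fold change ran from -0.24 to 0.56 in males and from -0.48 to 0.31 in females, and both groups overlapped their controls. Its other 2 probes overlapped their controls as well, in males and in females. From controls to 5 mg/kg, the mean of 1 of them went from 33.8 to 29.1 CPM in males. In females it went from 37.2 to 28.6 CPM. The mean of the other went from 4.38 to 6.19 CPM in males and from 6.81 to 3.66 CPM in females.

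Abcg2 encodes BCRP, a pump of sulfated conjugates, urate and many drugs. Its most counted probe gave 2.38, 3.79, 8.61, 19.7 and 19.8 CPM in control males and 16.5, 20.2, 20.4, 21.6 and 30.7 CPM at 5 mg/kg. In females it gave 0, 0, 0.795, 7.51 and 13.1 CPM in controls and 3.90, 13.3, 16.4, 21.6 and 24.01 CPM at 5 mg/kg. Treated and control mice overlapped in each sex, and neither comparison passed the threshold (log2 fold change 1.01, SE 0.73, edgeR adjusted p = 0.55 in males; 1.88, SE 0.75, edgeR adjusted p = 0.251 in females).

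The other 2 tested probes of Abcg2 lay on the same side in both sexes, with log2 fold changes of 1.72 and 2.74 for males, and of 1.88 and 2.20 for females, without a call. When the 4 probes of Abcg2 were summed before the fit, its mean was 18.4 ± 11.7 CPM in control males and 56.3 ± 18.7 CPM at 5 mg/kg, and 8.72 ± 9.47 against 34.4 ± 9.77 CPM in females (SD, n = 5 each). All mice at 5 mg/kg then lay above all controls of their sex. The summed value was called in males (log2 fold change 1.59, SE 0.48, edgeR adjusted p = 0.0269) and in females (1.96, SE 0.49, edgeR adjusted p = 0.0106), in fits where 6.39% and 2.24% of genes were called higher. Leaving out control female 153, the female with 13.1 CPM, gave an adjusted p of 0.0391 on the most counted probe. The call of Abcg2 therefore depended on how its probes were combined.

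Abcb4 encodes the floppase that supplies phosphatidylcholine to bile. It was counted at 0.0852 to 4.603 CPM in control males and 3.76 to 10.98 CPM in males at 5 mg/kg, and at 0 to 11.6 CPM in control females and 3.67 to 11.2 CPM in females at 5 mg/kg. The groups overlapped in each sex (edgeR adjusted p = 0.711 in males and 1.0 in females). These reads stood for an estimated 4.5 molecules over the 5 control males and 24.7 over the 5 males at 5 mg/kg, whose libraries held more molecules in all.

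**Figure D3:**
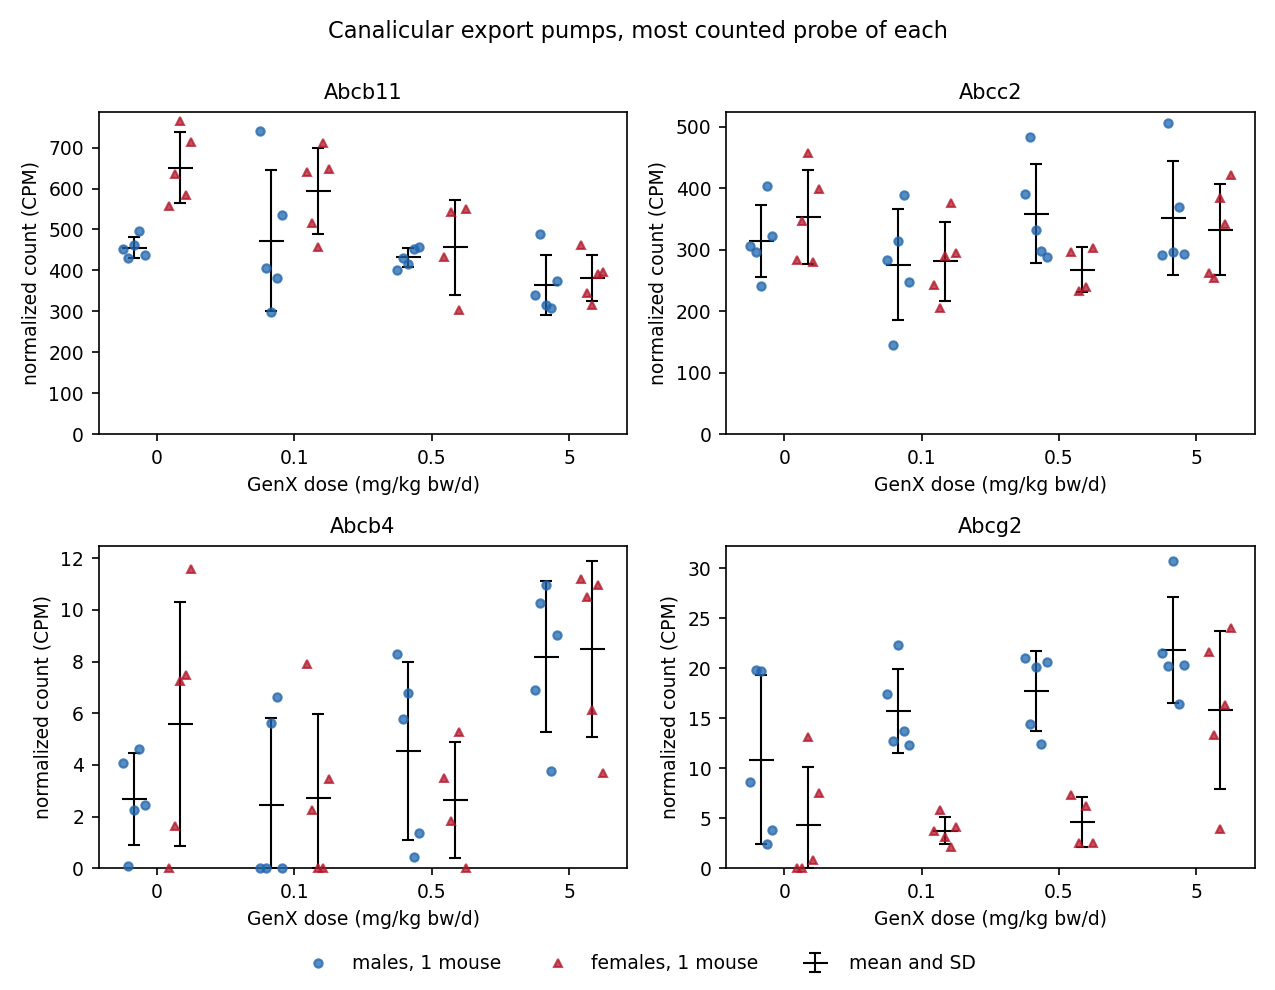
Normalized counts in CPM of the 4 canalicular export pumps in each mouse by GenX dose in mg/kg bw/d, with males as circles, females as triangles, and black bars at the mean and SD (lower bars stop at 0). Females at 5 mg/kg lie at 315 to 463 CPM for Abcb11, below the 557 to 764 CPM of control females, while Abcc2 overlaps at every dose.

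Abcc4 encodes MRP4, which returns bile acids with glutathione, nucleotides and sulfated conjugates to blood. Its most counted probe had 0 reads in all 5 control males. Males at 0.1 mg/kg had 0, 0, 0, 2.39 and 5.02 CPM, males at 0.5 mg/kg had 2.07, 3.40, 3.79, 4.33 and 9.65 CPM, and males at 5 mg/kg had 1.56, 4.27, 6.90, 8.78 and 14.1 CPM. Thus 0, 2, 5 and 5 of 5 males had a read at rising dose, and the counts behind these values were few.

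The call in males was made at 0.5 mg/kg (edgeR adjusted p = 0.0461) and at 5 mg/kg (edgeR adjusted p = 0.0101). The second probe of Abcc4 also had 0 reads in all control males, and its adjusted p was 0.0516 and 0.00546 by edgeR. In terms of estimated molecules, the 5 males at 5 mg/kg held 21.9 molecules on the most counted probe of 2830398 in all, and the 5 control males held 0 of 1647115. Taking 3 molecules over the 5 control libraries as the floor, Abcc4 was at least 4.25-fold higher at 5 mg/kg on the most counted probe and at least 4.63-fold higher on the other. The floor covers counting error of the controls only, and the treated side is the estimate itself. At 0.5 mg/kg the 5 males held an estimated 9.4 and 5.1 molecules on these probes, and no fold is given for that dose. Without control male 102, 103, 104 or 105, the adjusted p at 0.5 mg/kg was 0.102 to 0.107, and that at 5 mg/kg stayed at or below 0.0271 in every such fit. In the fit of counts in molecules Abcc4 did not pass the filter and was not tested.

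In females, Abcc4 had reads in 2 of 5 controls, at 3.39 and 6.84 CPM, and in 4 of 5 mice at 5 mg/kg, at 3.00, 5.29, 5.92 and 18.3 CPM. The groups overlapped (edgeR adjusted p = 0.962). The difference in response between the sexes did not pass the threshold at 5 mg/kg (edgeR adjusted p = 0.14; 0.0266 with the probes summed).

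Abcc3 encodes MRP3, which exports bile acid glucuronides to blood. It was at 213 to 357 CPM in control males and at 208 to 347 CPM at 5 mg/kg, and at 163 to 389 CPM in control females and 288 to 467 CPM in females at 5 mg/kg. Groups overlapped in each sex, with log2 fold changes of -0.15 (95% interval -0.54 to 0.24) in males and 0.38 (95% interval -0.01 to 0.77, edgeR adjusted p = 0.304) in females. A second probe gave -0.42 and 0.47.

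**Figure D4:**
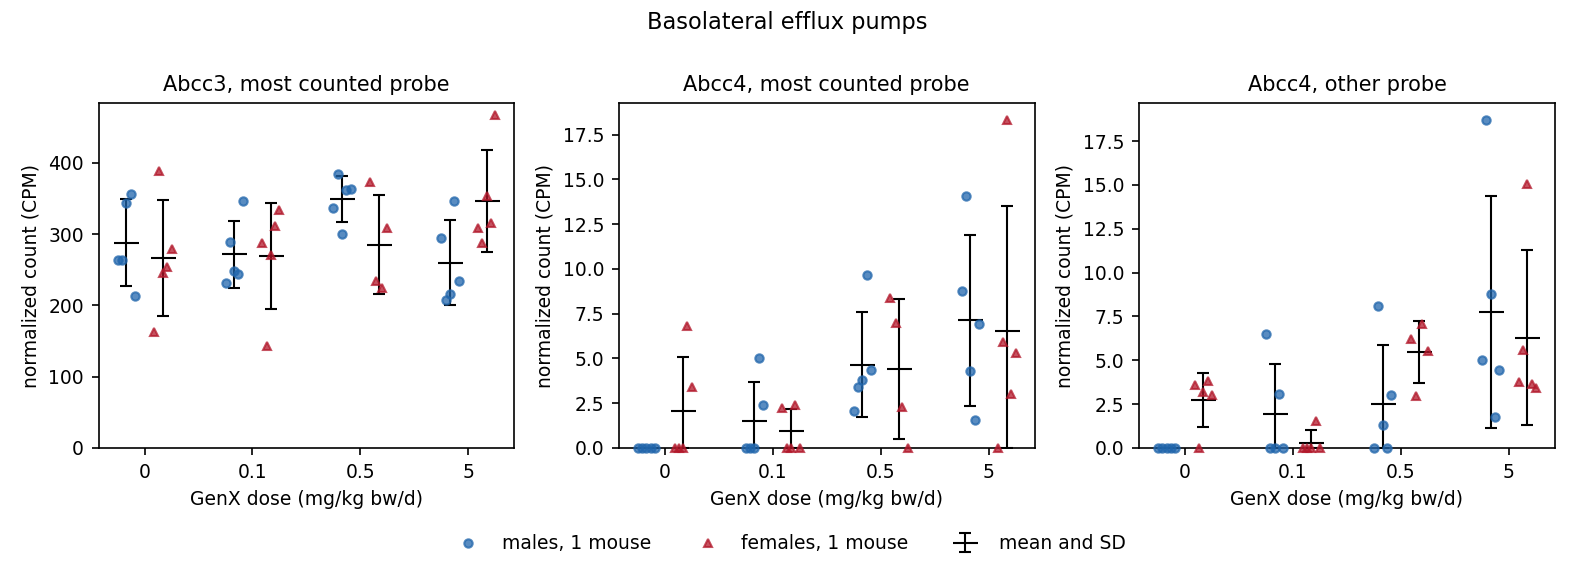
Normalized counts in CPM of the basolateral efflux pumps by GenX dose in mg/kg bw/d, for Abcc3 and for both probes of Abcc4, with males as circles, females as triangles, and black bars at the mean and SD (lower bars stop at 0). All 5 control males lie at 0 on both Abcc4 probes and all 5 males at 5 mg/kg lie above 0, up to 14.1 CPM on the most counted probe.

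Few calls were made at the lower doses. At 0.1 mg/kg, 0 of the 10 were called by edgeR in males, where 0.0403% of genes were called, and 0 in females, where 0.0% were. At an unadjusted p below 0.05 by edgeR there was 1 in males and 0 in females, beside 2435 and 1843 of all 17877 probes. DESeq2 called Abcc4 in males (adjusted p = 0.0488), with 0 calls for females. Over all probes, DESeq2 called 277 in males and 165 in females at this dose, more than edgeR. At 0.5 mg/kg, Abcc4 was the 1 called in males, where 1.88% of genes were called higher and 0.733% lower. In females at 0.5 mg/kg, 0 were called by edgeR and by DESeq2 and 1 had an unadjusted p below 0.05, with 0.201% of genes called in either direction. Of all 17877 probes, 1826 had an unadjusted p below 0.05 by edgeR in these females.

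Slc10a1 in males at 0.5 mg/kg had a mean between those of the control and the top-dose groups. It was at 180, 184, 218, 253 and 278 CPM, a mean of 223 ± 43.0 (SD, n = 5). The log2 fold change of -0.49 (SE 0.17) did not pass the threshold on the most counted probe (edgeR adjusted p = 0.172), whereas the other probe was called (log2 fold change -0.61, SE 0.19, edgeR adjusted p = 0.0864) and DESeq2 called the first (adjusted p = 0.0425). Slco1a1 was not lower in these males, at 77.6 to 127 CPM against 43.3 to 106 CPM in controls (log2 fold change 0.45, SE 0.30, edgeR adjusted p = 0.569). Abcb11 in females at 0.5 mg/kg was at 302, 433, 543 and 549 CPM, all below the control females, without passing the threshold (log2 fold change -0.51, SE 0.18, edgeR adjusted p = 0.485).

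From 0.5 to 5 mg/kg in males, Slc10a1, Slco1a1 and Slco1b2 fell, in a comparison where 1.84% of genes were called lower. The falls were 68.8%, 73.0% and 42.8%, with log2 fold changes of -1.68 (SE 0.18, edgeR adjusted p = 2.46e-09), -1.89 (SE 0.31, edgeR adjusted p = 5.16e-05) and -0.81 (SE 0.17, edgeR adjusted p = 0.00333), and for each of the 3 genes no male at 5 mg/kg overlapped a male at 0.5 mg/kg. In females, Slc10a1 was called lower at 5 than at 0.5 mg/kg (log2 fold change -0.66, SE 0.18, edgeR adjusted p = 0.0615), beside 0.749% of genes. This call was lost, at adjusted p values of 0.129 to 0.25, when any of mice 351, 352, 354, 451, 452, 454 and 455 was left out. The steps share their mice with the comparisons against controls and are not independent of them.

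Between the control mice of the sexes, Slco1b2 and Abcc4 were called higher in females, where 2.37% of genes were. Slco1b2 was at 149 to 223 CPM in control females, all above the 119 to 136 CPM of control males (log2 difference 0.60, SE 0.17, edgeR adjusted p = 0.0501), and the other probe overlapped (0.25, edgeR adjusted p = 0.83). The call was lost without male 103, female 151 or female 155 (adjusted p = 0.112 to 0.143). For Abcc4 the edgeR adjusted p on the most counted probe was 0.0673, resting on an estimated 4.3 molecules in 2 control females. It was 0.126 to 0.155 without female 154 or any 1 of the control males. The second probe of Abcc4 was called as well (edgeR adjusted p = 0.0355). That probe had an estimated 5.6 molecules in 4 control females and 0 reads in control males. With the probes summed, the edgeR adjusted p was 0.00225. At 0.5 mg/kg, the responses of the sexes differed for 0 of the 10 transporters by edgeR and by DESeq2, with 2 at an unadjusted p below 0.05 (Abcc2 and Abcc4), where 0.322% of genes were called. Of all 17877 probes, 1951 had an unadjusted p below 0.05 by edgeR in that comparison.

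The hepatocyte label was checked on 7 hepatocyte markers, each of which had reads in every group, and their summed level was 18470 to 46620 CPM over all mice. This sum ranged from 34970 to 42370 CPM in control males and from 19500 to 26980 CPM in males at 5 mg/kg, and the corresponding female ranges were 27930 to 45810 and 18470 to 27760 CPM. Alb, albumin, did not pass the threshold (log2 fold change -0.07 in males, -0.22 in females), nor did Ttr, transthyretin (-0.16 and -0.10) or Tat (-0.74 and -1.10). Apoa1, Cps1, Ass1 and Serpina1a fell in both sexes, from -0.88 to -1.65 in males and from -0.71 to -2.08 in females. Set beside these values without a test, the log2 fold change of Slc10a1 in males (-2.17) lay below those of all 7 markers, that of Slco1a1 (-1.44) above that of Serpina1a, and that of Slco1b2 (-0.62) above those of 5 of the 7. In females, Slc10a1 (-0.82) and Abcb11 (-0.77) fell less than Cps1, Ass1 and Serpina1a and had smaller changes than Tat. The part of these shifts in the transporter values was not tested.

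Markers of other cell types were summed in the same way, and sums of different probes were not compared with each other. Cholangiocyte markers, 6 genes, summed to 31.9 to 63.3 CPM in control males and 40.05 to 95.2 CPM at 5 mg/kg. Krt7, Epcam and Sox9 were at 0 in the control males, and Epcam, Sox9 and Cftr were at 0 in the males at 5 mg/kg. Kupffer cell markers summed to 13.1 to 63.3 CPM and 29.3 to 38.2 CPM in these male groups, stellate cell markers to 60.9 to 128 and 121 to 146 CPM, and endothelial markers to 159 to 187 and 92.4 to 178.5 CPM. The 3 markers of dividing cells, Mki67, Top2a and Ccnb1, summed to 0 to 1.79 CPM in control males and to 23.2 to 62.2 CPM at 5 mg/kg, where Top2a was called higher (edgeR adjusted p = 0.0148). In females these sums were 0 to 10.6 and 0 to 33.5 CPM. Lymphocyte markers stayed at 26.6 CPM or less and adipocyte markers at 3.12 CPM or less in every mouse. Their part in the transporter values was not tested.

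**Figure D5:**
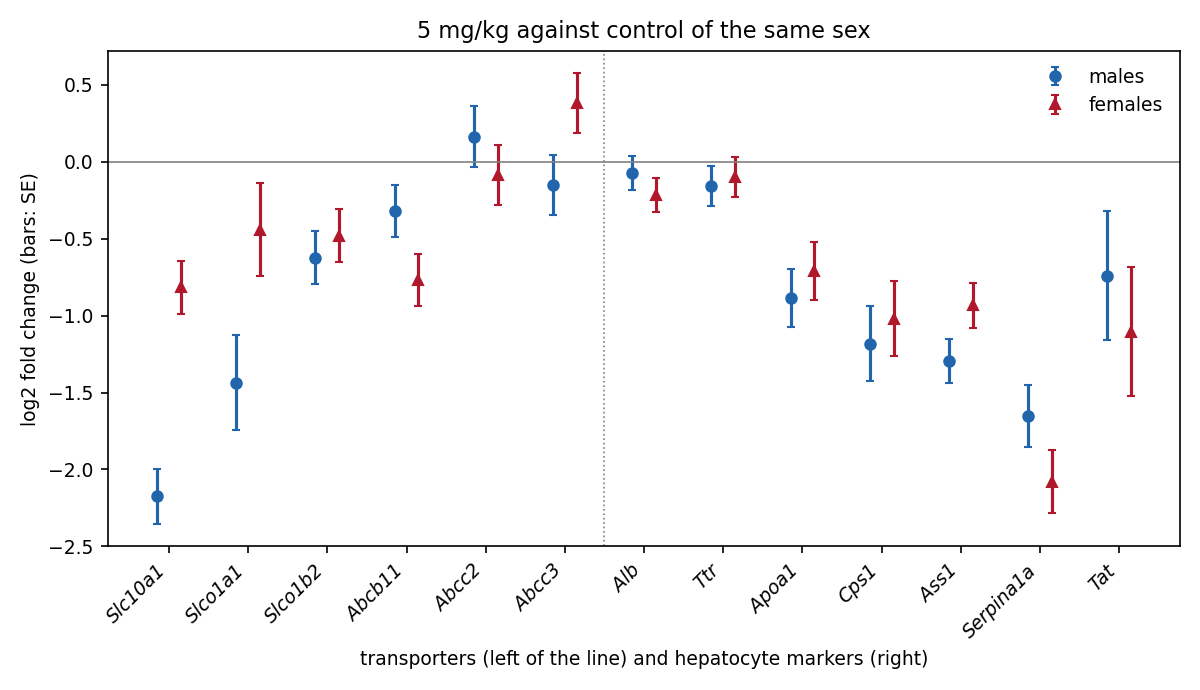
Log2 fold change at 5 mg/kg against control mice of the same sex (vertical axis, bars are SE) for 6 transporters with ample reads, left of the dotted line, and 7 hepatocyte markers, right of it, with males as circles and females as triangles. Abcc2 and Abcc3 lie near 0 with Alb and Ttr, Slc10a1 in males, at -2.17, lies below all 7 markers, and in females, at -0.82, it lies above 4 of them.

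Other hepatic transporters were read from a list of 20 genes, of which 18 were tested and Slc51a and Slco1a6 were not. At 5 mg/kg, 2 rose and 3 fell in males, and 1 rose and 1 fell in females, with median log2 fold changes of -0.51 and 0.05. Of all genes tested, 5.59% were called higher and 3.75% lower in males, and 2.09% and 2.0% in females. The medians over all probes, for this list and those below, were 0.10 in males and -0.01 in females. Slc16a1, the monocarboxylate carrier MCT1, was at 144 ± 17.9 CPM in control males and 426 ± 37.6 CPM at 5 mg/kg (SD, n = 5 each; log2 fold change 1.56, edgeR adjusted p = 4.22e-10), and rose by 1.19 in females (edgeR adjusted p = 7.29e-07). Slco2b1, another OATP of the sinusoidal membrane, fell in both sexes (log2 fold change -0.79, edgeR adjusted p = 0.0036 in males; -0.58, edgeR adjusted p = 0.0969 in females), while its other 2 tested probes were not called in females. Slco2a1, a prostaglandin carrier, and Slc29a1, a nucleoside carrier, fell in males (log2 fold change -0.88 and -2.17, edgeR adjusted p = 0.00611 and 0.01). Other probes of Slc29a1 gave -2.63 and -3.94 in males without a call (edgeR adjusted p = 0.672 and 0.265).

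Receptors and regulators of bile acid transport, 15 genes, held 3 that fell in males and 2 that fell in females at 5 mg/kg, with medians of -0.35 and -0.26. The shares of all genes called lower were 3.75% in males and 2.0% in females. Hnf4a, the nuclear receptor that sustains many hepatocyte genes, went from 358 ± 101 to 206 ± 20.3 CPM in males (SD, n = 5 each; log2 fold change -0.80, SE 0.16, edgeR adjusted p = 0.000497) and fell in females as well (-0.56, SE 0.16, edgeR adjusted p = 0.0439). Its other probe was called in males (-0.729, edgeR adjusted p = 0.0588) and not in females (-0.535, edgeR adjusted p = 0.258). Cebpa, another hepatocyte transcription factor, fell in males (-0.81, edgeR adjusted p = 0.00589), as did Rxra, the common partner of nuclear receptors (-0.35, edgeR adjusted p = 0.0821; -0.63 and 0.00499 on its other probe). Fgfr4, the receptor of the intestinal bile acid signal, fell in females (-1.22, edgeR adjusted p = 0.015) and had -0.72 in males (edgeR adjusted p = 0.175). Of 9 membrane anchoring and trafficking genes, Rab11a, a GTPase of recycling vesicles, was the 1 called in males (0.71, edgeR adjusted p = 0.0579). Its other probe gave 0.71 without a call (edgeR adjusted p = 0.523), and 5.59% of all genes were called higher in males.

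Of 11 genes of bile acid synthesis and conjugation, 6 fell in males, and 1 rose and 2 fell in females at 5 mg/kg, with medians of -0.86 and -0.27. Among all genes, 3.75% were called lower in males, and 2.09% higher and 2.0% lower in females. Akr1d1, the steroid reductase of the pathway, fell by 1.68 on the log2 scale in males (edgeR adjusted p = 8.96e-06) and had -0.27 in females (edgeR adjusted p = 0.926). Cyp7b1, of the alternative pathway, was at 142 ± 62.3 CPM in control males and 18.9 ± 15.5 CPM at 5 mg/kg (SD, n = 5 each; edgeR adjusted p = 1.44e-05). Hsd3b7 fell in males (-0.65, edgeR adjusted p = 0.00161). Slc27a5, which activates bile acids for conjugation, fell in both sexes (-0.66, edgeR adjusted p = 0.0022 in males; -0.47, edgeR adjusted p = 0.0919 in females).

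Of 8 NRF2 targets, 4 rose in males at 5 mg/kg, with a median log2 fold change of 0.72 in males and 0.39 in females. The share of all genes called higher in males, for this list and the next, was 5.59%. Nqo1, a quinone reductase, rose by 2.34 on the log2 scale (edgeR adjusted p = 0.0479) and Txnrd1, thioredoxin reductase, by 0.63 (edgeR adjusted p = 0.0612), and Gsta1 and Gstm3, from a family of near-identical copies, had 3.43 and 0.82. Other probes were not called in males, at 0.36 (edgeR adjusted p = 0.541) and 0.17 for Txnrd1 and 2.02 (edgeR adjusted p = 0.326) for Gstm3. Of 7 CAR and PXR targets, 2 rose in males, Cyp2b9 (4.46, edgeR adjusted p = 0.000107) and Por (1.05, edgeR adjusted p = 0.0963). Cyp2b9 is also on the list of female-predominant liver genes.

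Lists of sex-predominant liver genes were read beside the comparison of the sexes. All 10 female-predominant genes were called higher in control females than in control males, and 7 of 9 male-predominant genes were called lower, so the sexes were told apart as labelled. Of all 12412 genes, 294 were called higher and 189 lower in control females. At 5 mg/kg, 5 of the 9 male-predominant genes fell in males, beside 3.75% of all genes. In these males 4 of the 10 female-predominant genes rose, beside 5.59% of all genes. In females, 4 of the 10 female-predominant genes fell, and 2 of the 9 male-predominant genes rose and 2 fell. Among all genes, 2.09% were called higher and 2.0% lower in females. Cyp4a12a, a fatty acid hydroxylase, was at 0.0303 ± 0.042 CPM in control females and 149.6 ± 61.0 CPM at 5 mg/kg (SD, n = 5 each). Gstp1, a glutathione transferase, was at 5715 ± 2200 CPM in control males and 1726 ± 186 CPM at 5 mg/kg, and at 471 ± 61.0 and 759 ± 142 CPM in females (SD, n = 5 each). Serpina1e, a protease inhibitor of a family with close copies, fell by 1.88 in males and 1.92 in females on the log2 scale, with control means of 9626 ± 1500 CPM in males and 9330 ± 1640 CPM in females (SD, n = 5 each).

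Cyp3a41a, a female-predominant P450, was at 3256 ± 597 CPM in control females and 357 ± 400 CPM at 5 mg/kg (SD, n = 5 each). Cyp3a44 was at 36.5 ± 14 CPM in control females and had 0 reads in all females at 5 mg/kg. Cyp2b13 had 0 reads in control males and 5.68 ± 4.02 CPM in males at 5 mg/kg, and Cyp2b9 went from 3.16 ± 5.53 to 69.3 ± 15.9 CPM in males (SD, n = 5 each). Slc10a1, Slco1b2 and Slco1a1 were not placed on either list, which says nothing about their own difference between the sexes. Slco1b2 was called higher in control females, as given above.

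The genes whose 8 group means were most like those of a transporter were taken by the root mean square difference of centred log2 CPM, over all 8 groups. For Slc10a1 these were Gnmt, a glycine methyltransferase (0.15), and Fndc4 (0.15), with log2 fold changes in males at 5 mg/kg of -1.66 and -1.58. For Abcb11 they were Kng1, kininogen (0.08), and Nfil3, a transcription factor (0.10), which had -0.69 and -0.64 in females at 5 mg/kg. For Abcc4 they were Frs2 (0.49) and Eci3 (0.51), at a likeness much looser than for the others.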

How the data were processed

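The authors deposited raw probe counts, whole numbers of reads per probe without normalization; the submitters' processing notes list bcl2fastq 2.17.1.14, Bowtie and the build mm10, the study's methods state that reads per probe were taken from FASTQ files, and the settings are not given in the sources used here. From these counts, R 4.3.3 with edgeR 4.0.16 fitted 39 libraries (TMM, filterByExpr, 1 coefficient per group, quasi-likelihood F-test, Benjamini-Hochberg over 17877 probes, two-sided, threshold 0.10). The library of mouse 355 lay below 9680193 reads, the mean minus 2 SD. Counts gather around a first peak of 20.8 to 49.8 reads per library, so totals divided by it, 287245 to 656758, estimate captured molecules and limit precision. DESeq2 1.42.0, the study's tool, was an alternative. The scripts were tested on simulated data. Replicates are separate mice. The transporters and lists were chosen with earlier results of these data known. Named genes are all 10 transporters, up to 4 called genes per list with the smallest adjusted p at 5 mg/kg, and 2 genes most like the transporter of each class with the smallest p. Alternatives were DESeq2, its size factors, no filter, all 40 libraries, only the groups compared, summed probes, an adjusted p of 0.05, counts in molecules and leaving out each mouse.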

Additional observations from a re-analysis of the deposited data

Results flagged for a closer look

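Among the 79 groups of 4 or 5 mice that could be checked for a mouse far from the rest, 6 held such a mouse. The rule marks about 1 in 20 by chance where values are normally spread. Groups with most mice at or near 0, as for Slco1a4, are not of that kind, so the rate does not apply to them. For Slc10a1 in males at 5 mg/kg, mouse 405 was at 40.42 CPM and the next mouse at 70.86 CPM. For Slco1b2 in males at 5 mg/kg, mouse 402 was at 111.1 CPM, above the next at 77.65 CPM. For Slco1a1 in females at 0.5 mg/kg, mouse 354 was at 106.5 CPM and the next at 53.66 CPM. Slco1a4 had such a mouse in control males (mouse 102, 7.497 CPM, the others at 0), in males at 0.1 mg/kg (mouse 203, 6.209 CPM, next 0.5007) and in males at 5 mg/kg (mouse 402, 2.792 CPM, the others at 0). The calls of Slc10a1 and Slco1b2 in males at 5 mg/kg held with each mouse left out, at log2 fold changes of -2.24 to -2.03 and -0.77 to -0.56.

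The response of Slc10a1 at 5 mg/kg differed between males and females by -1.357 on the log2 scale (interaction, edgeR adjusted p = 0.00107), with means of 314 and 69.5 CPM in control and treated males and 290.4 and 165 CPM in females.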

How the results depend on the processing

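Counts are of members or probes at an adjusted p below 0.10. With mouse 355 kept in, fewer were called in every comparison that had calls: members fell to 0 in males at 0.5 mg/kg (from 1), 2 in males at 5 mg/kg (from 4), 0 in females at 5 mg/kg (from 2), 1 and 0 for the steps from 0.5 to 5 mg/kg in males and females (from 3 and 1), 0 between control sexes (from 2) and 0 for the sex difference at 5 mg/kg (from 1), and probes fell to 0, 91 and 834 in males at 0.1, 0.5 and 5 mg/kg (from 6, 425 and 1480) and to 8 and 238 in females at the upper doses (from 38 and 655). Slc10a1 in males stayed called at 5 mg/kg against controls and against 0.5 mg/kg, and Abcc4 in males at 5 mg/kg against controls. The cause was not tested. With DESeq2, members were 1 and 2 in males at 0.1 and 0.5 mg/kg (from 0 and 1), and probes were 277 and 878 in males at 0.1 and 0.5 mg/kg (from 6 and 425) and 165, 302 and 1003 in females (from 0, 38 and 655). With the groups compared only, members were 2 in males at 0.5 mg/kg and 0 for the female step, and probes were 0 for males given 0.1 mg/kg and 22 for females given 0.5 mg/kg. With probes summed, members were 1 and 2 in males at 0.1 and 0.5 mg/kg and 2 for the sex difference at 5 mg/kg (Abcc4 and Slc10a1). At an adjusted p below 0.05, members were 0 for the female step and 0 between control sexes, and probes were 2 and 280 in males at 0.1 and 0.5 mg/kg. Without the filter, probes were 40 in males at 0.1 mg/kg, and for females 15 at that dose and 108 at 0.5 mg/kg. With counts in molecules, probes were 0 and 741 in males at 0.1 and 0.5 mg/kg and 101 in females at 0.5 mg/kg.

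Leaving out each mouse in turn gave 0 to 1 members in males at 0.5 mg/kg, 4 to 4 in males and 2 to 3 in females at 5 mg/kg, 3 to 3 and 0 to 1 for the male and female steps, 0 to 2 between control sexes and 1 to 1 for the sex difference at 5 mg/kg, and 0 to 0 elsewhere. Probes ranged over 1 to 11, 304 to 379 and 1190 to 1378 in males and 0 to 2, 30 to 52 and 530 to 625 in females. Of 1989 refitted log2 fold changes of single genes, 32 lost a call, 20 gained one, 10 without a call changed sign by more than 1 SE, and the other 1927 kept their side of the threshold, with their sign or within 1 SE. With mouse 355 the sign changes were in Slco1a1 in females at 0.5 mg/kg (-0.15) and, from 0.5 to 5 mg/kg in females, Abcb11 (0.051) and Slco1b2 (0.12). With 1 mouse left out, values ranged from -0.17 to 0.18 for Abcb11 and -3.52 to 7.16 for Slco1a4 in males at 0.1 mg/kg, from -7.31 to 5.92 for Slco1a4 in males at 5 mg/kg and -5.28 to 7.95 for its sex difference, from -0.51 to 0.84 for Abcg2 and -0.32 to 0.30 for Slco1a1 in females at 0.1 mg/kg, and from -0.21 to 0.35 for Slco1a1 in females at 0.5 mg/kg. For Slco1a4 a group without reads sets the fitted value. Few captured molecules limit Slco1a4, Abcb4, Abcc4 and Abcg2. No paired analysis was possible because mice of different groups share no replicate number.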

Other observations

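The library of mouse 355, a female at 0.5 mg/kg left out of the fit of 39 libraries, held 147 reads of Slc10a1. This was 21.9 CPM of its total without further scaling, where control females had 248.6 to 324.7 CPM. Abcb11 was at 37.99 CPM against 575.5 to 739.5 in control females, and Abcc2 at 22.5 against 284.7 to 442.3. Slco1a1, Slco1a4 and Slco1b2 had 0 reads. Abcc3, at 185.2 CPM, lay within the range of control females (168 to 385.7). The estimated 92099 molecules in this library limit what these values can show.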
